A study of Mus musculus with 172 samples.

Results

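The Krüppel-like factors (KLFs) were followed in the cortex and liver of sleep-deprived and undisturbed mice. The 8 members *Klf2*, *Klf4*, *Klf6*, *Klf7*, *Klf9*, *Klf10*, *Klf13* and *Klf15* were taken by name wherever the deposited expression tables list them. All 8 of 8 were listed among the 14896 genes of the cortex tables and among the 14107 genes of the liver tables. KLFs are transcription factors that bind GC-rich and CACCC-type sequences of gene control regions through zinc fingers at their C-terminal end, and differ in the adjoining parts with which they recruit activators or repressors. Several of them are rapidly induced by stimuli: KLF9 and KLF15 are known glucocorticoid-receptor targets, KLF15 is a regulator of amino acid use in liver and muscle, KLF10 was first described as an early gene of TGF-beta signaling, and KLF2 and KLF4 are known for their roles in endothelial cells.

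Male young adult mice of 33 BXD/RwwJ recombinant inbred lines, which carry shuffled C57BL/6J (B6) and DBA/2J (D2) genomes, of both parental strains and of both reciprocal F1 crosses were killed at ZT6, that is 6 h after light onset. Mice in the sleep deprivation group (SD) had been kept awake by gentle handling during the 6 h from light onset, while controls (Ctr) were left undisturbed. RNA of the mice of a line and condition was pooled in equal amounts into 1 library per tissue, so each line gave 1 value per tissue and condition, and spread between mice of a line cannot be seen. Fewer mice were available for BXD79, BXD85 and BXD101, which bred poorly, so their pools average over fewer animals. Each parental strain was pooled at the start and again at the end of the collection. This gave 39 Ctr and 39 SD pools per tissue (33 BXD/RwwJ, 4 parental and 2 F1). Below, each of the 39 is called a line, although the 2 pools of a parental strain share a genotype. By their labels, BXD96, BXD97 and BXD103 are also named 48a, 65a and 73b. They share these numbers with BXD48, BXD65 and BXD73, which are among the 39 too, and were treated as separate lines. Another 4 BXD/TyJ lines were kept apart. No gene was altered in any group, and the lines carry natural genotypes. Mice were collected in many cohorts, so lines can also differ by collection date. Controls were kept in another room than SD mice.

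Values are log2 CPM, the log2 of read counts scaled to the size of each library. Reads counted on the listed genes numbered 18995492 to 28998853 per cortex library and 4681101 to 8269401 per liver library. These are not all the reads sequenced. The liver values of low genes thus rest on few reads: the lowest library had 6 reads of *Klf7* and 7 of *Klf4* in liver, against 91 and 90 in cortex. Neuron markers summed to a median of 8611 CPM in Ctr cortex, where 4 of 6 hepatocyte markers were not listed, and hepatocyte markers to 2446 CPM in Ctr liver, where 4 of 6 neuron markers were not listed. Some libraries stood apart. In Ctr cortex, the root mean square deviation from the group median was 0.359 for BXD90 and 0.305 for BXD56, against a median of 0.175 over pools. In liver SD it was 0.713 for BXD70, against a median of 0.327. In BXD89, the SD minus Ctr change in cortex followed the mean change of the other pools over all genes with a slope of only 0.267, against a median slope of 1.01. Results are therefore also given without these 4 lines where that matters. BXD50, not left out, had the lowest slope in liver, 0.433 against a median of 0.925, and a deviation of 0.423 in liver SD.

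The promoters of 7 of 8 members are held by the RefSeq promoter table, and *Klf10* has no entry. The windows of 300 bases (250 before and 50 after the start site, build GRCm38.p6, printed 5′ to 3′ on the strand of the gene) are shown for the *Klf2* and *Klf4* pair and the *Klf9*, *Klf13* and *Klf15* trio, whose changes in cortex went together across lines. Capitals mark matches on either strand to the GC box GGGCGG, the E-box CACGTG, the core TGACGT of the cAMP response element, and the MEF2 motif.
Klf2, chr8:72318812-72319111, + strand: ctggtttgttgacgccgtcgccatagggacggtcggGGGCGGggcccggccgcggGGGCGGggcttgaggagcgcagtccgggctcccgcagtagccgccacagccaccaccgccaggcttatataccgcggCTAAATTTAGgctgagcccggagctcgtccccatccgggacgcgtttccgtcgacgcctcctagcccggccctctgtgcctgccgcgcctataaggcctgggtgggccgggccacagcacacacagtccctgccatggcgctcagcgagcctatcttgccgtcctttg
Klf4, chr4:55532426-55532725, - strand: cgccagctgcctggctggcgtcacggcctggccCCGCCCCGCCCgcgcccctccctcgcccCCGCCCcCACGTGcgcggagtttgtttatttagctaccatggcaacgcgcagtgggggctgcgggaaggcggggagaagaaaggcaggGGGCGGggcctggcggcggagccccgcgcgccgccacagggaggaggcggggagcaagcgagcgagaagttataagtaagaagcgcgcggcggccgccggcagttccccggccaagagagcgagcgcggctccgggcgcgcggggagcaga
Klf9, chr19:23140976-23141275, + strand: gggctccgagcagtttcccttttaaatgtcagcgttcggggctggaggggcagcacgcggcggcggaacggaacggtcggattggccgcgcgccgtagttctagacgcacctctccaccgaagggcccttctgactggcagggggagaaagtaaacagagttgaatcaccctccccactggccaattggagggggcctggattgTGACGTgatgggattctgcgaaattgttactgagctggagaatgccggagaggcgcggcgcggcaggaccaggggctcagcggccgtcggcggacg
Klf13, chr7:63938866-63939165, - strand: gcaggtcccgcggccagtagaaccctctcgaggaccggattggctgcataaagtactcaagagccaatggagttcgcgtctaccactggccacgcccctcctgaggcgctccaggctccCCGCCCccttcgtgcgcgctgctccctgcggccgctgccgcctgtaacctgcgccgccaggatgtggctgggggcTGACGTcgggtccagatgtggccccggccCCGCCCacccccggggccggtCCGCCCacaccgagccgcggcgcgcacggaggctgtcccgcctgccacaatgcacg
Klf15, chr6:90462326-90462625, + strand: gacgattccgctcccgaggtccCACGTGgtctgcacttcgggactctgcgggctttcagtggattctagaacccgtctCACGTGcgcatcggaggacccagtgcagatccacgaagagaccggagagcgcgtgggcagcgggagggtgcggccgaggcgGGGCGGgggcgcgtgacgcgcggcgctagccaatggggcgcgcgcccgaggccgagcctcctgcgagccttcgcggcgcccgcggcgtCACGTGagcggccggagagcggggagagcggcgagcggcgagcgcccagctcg
A GC box was found in the window of 6 of the 7 members (all but *Klf9*) and in 35.7% of 32851 mouse promoter windows of this length. The shorter KLF-type box CACCC, not marked, was found in 5 of 7 and in 57.5% of all windows. The E-box was found in *Klf4*, *Klf6* and *Klf15* and in 7.15% of all windows, and *Klf15* held 3 of them, starting 228, 172 and 3 bases before the start site. The core TGACGT was found in *Klf9* and *Klf13* and in 7.51% of all windows. The MEF2 motif was found in *Klf2*, starting 118 bases before the start site, and in 0.557% of all windows. Neither the palindrome core ACANNNTGT of glucocorticoid receptor sites (6.85% of windows) nor the CArG box of serum response factor (1.63%) was matched in any of the 7. These are matches of letters, and occupancy of the sites was not measured.

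In cortex, *Klf9*, *Klf13* and *Klf6* were the most abundant members and *Klf7* and *Klf4* the least when CPM was divided by exonic length in kb (GENCODE M1 models, build mm9). In undisturbed mice, the mean level per kb of exon was 53.2 CPM for *Klf9*, 26.5 for *Klf13*, 18.3 for *Klf6*, 8.51 for *Klf15*, 8.49 for *Klf10*, 2.79 for *Klf2*, 1.76 for *Klf4* and 1.33 for *Klf7*. The ranges over the 39 Ctr pools did not overlap between neighbors in this order, except for *Klf15* and *Klf10* (*Klf15* higher in 26 of 39 pools), *Klf2* and *Klf4* (39 of 39) and *Klf4* and *Klf7* (37 of 39). The order depends on these lengths, whereas reads were counted on RefSeq models. Before division, mean log2 CPM in Ctr cortex was 7.43 for *Klf9* and 7.45 for *Klf13*. It was 3.42 for *Klf7*, above 2.41 for *Klf4* and 2.34 for *Klf2*. In liver, *Klf15* came first with 63.6 CPM per kb, followed by *Klf9* with 43.0, *Klf13* with 19.0, *Klf10* with 16.3, *Klf2* with 7.33, *Klf6* with 7.10, *Klf4* with 1.18 and *Klf7* with 0.484. Here *Klf2* and *Klf6* could not be ordered (*Klf2* higher in 22 of 39 pools), and *Klf13* was above *Klf10* in 31 of 39. The ranges of *Klf10* and *Klf2* and of *Klf4* and *Klf7* also overlapped, although the first of each was higher in 39 of 39 pools. Cortex and liver tables were normalized separately, so the tissues are set side by side by order only.

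Sleep deprivation was accompanied by higher *Klf2*, *Klf4* and *Klf10* in cortex, by 1.94-, 1.92- and 1.85-fold. *Klf9*, *Klf13* and *Klf15* rose in both tissues, by 1.2- to 1.28-fold in cortex and 1.11- to 1.23-fold in liver, and *Klf10* rose in liver by 1.24-fold. *Klf6* fell in cortex to 0.863 of its Ctr level. *Klf7* passed the test in neither tissue. Of the 8 members, 6 were called higher and 1 lower in cortex (limma, p adjusted by Benjamini-Hochberg across every listed gene, threshold 0.05), and 4 were called higher and 0 lower in liver; at an unadjusted p under 0.05, *Klf2* was also higher in liver. Among all genes, 68.4% were called in cortex (33.0% higher, 35.4% lower) and 44.2% in liver (21.5% higher, 22.6% lower), so being called is common in these data. The median log2 fold change of the members was 0.35 in cortex and 0.14 in liver, against -0.010 and -0.0015 over all genes.

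**Figure D1:**
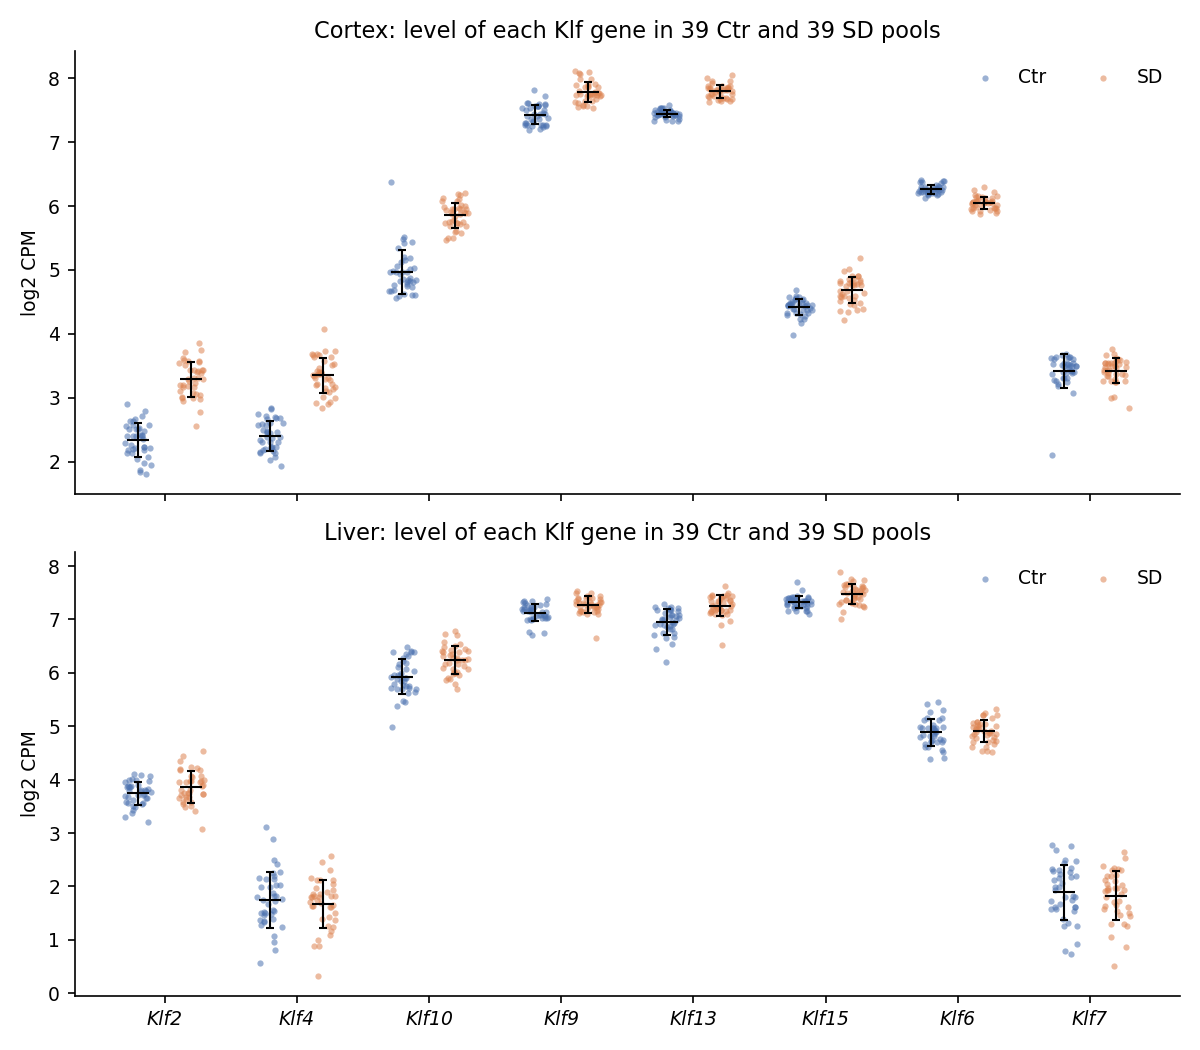
Level (log2 CPM) of each member in 39 Ctr (blue) and 39 SD (orange) pools of cortex (top) and liver (bottom), with mean ± SD as black bars. In cortex the SD pools of *Klf13* all lie above the Ctr pools, while *Klf2*, *Klf4* and *Klf10* shift most; in liver the groups overlap for every member.

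*Klf2* (chr8:74842932-74845555 in mm9, + strand), a factor of endothelial quiescence and lymphocyte trafficking, lay between 1.81 and 2.90 log2 CPM (median 2.40) in Ctr cortex and between 2.56 and 3.86 (median 3.29) in SD. The SD level exceeded that of the same line in 38 of 39 pool pairs, and 37 of the 39 SD pools lay above the highest Ctr pool. The log2 fold change was 0.95 ± 0.060 (SE; limma, adjusted p = 6.8e-25). *Klf4* (chr4:55540013-55545347, - strand), best known as a pluripotency factor, ranged from 1.93 to 2.84 (median 2.38) in Ctr and from 2.83 to 4.08 (median 3.35) in SD. It was higher in 39 of 39 pairs, 38 SD pools lay above every Ctr pool, and the log2 fold change was 0.94 ± 0.057 (limma, adjusted p = 6.5e-26). *Klf10* (chr15:38221219-38230464, - strand) ranged from 4.57 to 6.38 (median 4.88) in Ctr and from 5.47 to 6.21 (median 5.89) in SD. It was higher in 38 of 39 pairs, with a log2 fold change of 0.89 ± 0.062 (limma, adjusted p = 2.1e-22). The 1 pair that went the other way, by -0.26, was BXD56, whose Ctr library held the highest value of all, 6.38, and is one of those that stood apart; without BXD56 the log2 fold change was 0.92. By the size of the change, these genes rank within the first 1.74% of all cortex genes.

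The line with the smallest *Klf2* and *Klf4* changes in cortex was BXD89. Its *Klf2* level was 2.79 in Ctr and 2.78 in SD, and its *Klf4* level was 2.83 in Ctr with a change of 0.18. *Klf9* and *Klf13* also changed least in BXD89, by 0.11 and 0.048. At the other end, *Klf2* rose by 1.58 in BXD67 and 1.53 in BXD66, and *Klf4* by 1.59 and 1.60 in the same lines. The largest *Klf10* changes were those of BXD44 (1.51) and BXD96 (1.42). Counting error alone gives an SD of the change between pairs of 0.168 for *Klf2*, 0.164 for *Klf4* and 0.068 for *Klf10*. The observed SDs were 0.314, 0.318 and 0.342, which include differences between lines, between mice and in library preparation.

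*Klf9* (chr19:23215716-23241401, + strand), a glucocorticoid- and thyroid hormone-induced factor of neurons, ranged from 7.19 to 7.81 log2 CPM (median 7.44) in Ctr cortex and from 7.54 to 8.12 (median 7.75) in SD. It was higher in 39 of 39 pairs although only 13 SD pools lay above the highest Ctr pool, and its log2 fold change was 0.35 ± 0.034 (limma, adjusted p = 3.2e-15). *Klf13* (chr7:71031237-71083801, - strand), a close relative of *Klf9*, had a narrow spread, from 7.32 to 7.59 (median 7.45) in Ctr and from 7.63 to 8.05 (median 7.81) in SD. Its groups did not overlap, as was the case for 208 of all cortex genes (1.40%). The log2 fold change was 0.35 ± 0.019 (limma, adjusted p = 4.5e-29). *Klf15* (chr6:90412570-90425232, + strand) ranged from 3.98 to 4.69 (median 4.44) in Ctr and from 4.22 to 5.19 (median 4.75) in SD. Of its pairs, 33 were higher and 6 lower in SD, from -0.15 in BXD101 (a line with fewer mice) to 0.78 in BXD56. The log2 fold change of *Klf15* was 0.27 ± 0.039 (limma, adjusted p = 6.5e-09).

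*Klf6* (chr13:5860735-5869639, + strand), a broadly expressed factor, was the member that fell. It ranged from 6.12 to 6.40 (median 6.26) in Ctr cortex and from 5.87 to 6.29 (median 6.05) in SD. It was lower in 37 of 39 pairs, 29 SD pools lay below every Ctr pool, and the log2 fold change was -0.21 ± 0.019 (limma, adjusted p = 4.5e-17). *Klf7* (chr1:64076021-64168856, - strand), a factor of neurite outgrowth, ranged from 2.11 to 3.68 (median 3.49) in Ctr and from 2.84 to 3.76 (median 3.47) in SD. It was higher in 19 pairs and lower in 20, with a log2 fold change of 0.0041 ± 0.051 (limma, adjusted p = 0.95). Its lowest Ctr value, 2.11, came from the BXD90 library, whose pair changed by 1.42; without the 4 lines that stood apart the log2 fold change was -0.047 (adjusted p = 0.30).

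In liver, *Klf10* ranged from 4.99 to 6.48 log2 CPM (median 5.91) in Ctr and from 5.71 to 6.79 (median 6.25) in SD, and was higher in 29 of 39 pairs. Its log2 fold change was 0.31 ± 0.065 (limma, adjusted p = 4.8e-05). *Klf13* ranged from 6.21 to 7.28 (median 6.99) in Ctr and from 6.52 to 7.62 (median 7.25) in SD, was higher in 35 of 39 pairs and changed by 0.30 ± 0.048 (limma, adjusted p = 1.9e-07). *Klf15*, the most abundant member in this tissue, ranged from 7.11 to 7.70 (median 7.34) in Ctr and from 7.02 to 7.88 (median 7.49) in SD. It was higher in 29 of 39 pairs and changed by 0.15 ± 0.034 (limma, adjusted p = 1.3e-04). *Klf9* ranged from 6.70 to 7.37 (median 7.14) in Ctr and from 6.65 to 7.54 (median 7.28) in SD, was higher in 34 of 39 pairs and changed by 0.15 ± 0.035 (limma, adjusted p = 2.2e-04). The lowest *Klf9* value in SD was that of the BXD70 library that stood apart.

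The other 4 members were not called in liver. *Klf2* ranged from 3.21 to 4.11 (median 3.78) in Ctr and from 3.07 to 4.53 (median 3.88) in SD, was higher in 20 of 39 pairs, and had a log2 fold change of 0.13 ± 0.060 (limma, adjusted p = 0.078). This value lay close to the threshold: with line as a block the adjusted p was 0.049, without the second B6 pool (change of -0.69) it was 0.030, and without BXD70 it was 0.15. *Klf6* ranged from 4.38 to 5.46 in Ctr and from 4.51 to 5.32 in SD, with a log2 fold change of 0.022 ± 0.052 (adjusted p = 0.77). The low genes *Klf4* and *Klf7*, with means of 23.7 and 26.1 reads per Ctr library, had log2 fold changes of -0.079 ± 0.11 and -0.065 ± 0.11 (adjusted p = 0.60 and 0.67). Changes between pairs of these genes spread from -1.86 to 1.30 and from -1.48 to 1.57, with SDs of 0.709 and 0.596. Counting error alone gives SDs of 0.468 and 0.446. With an SE of 0.11, a small change of these genes cannot be told from no change.

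**Figure D2:**
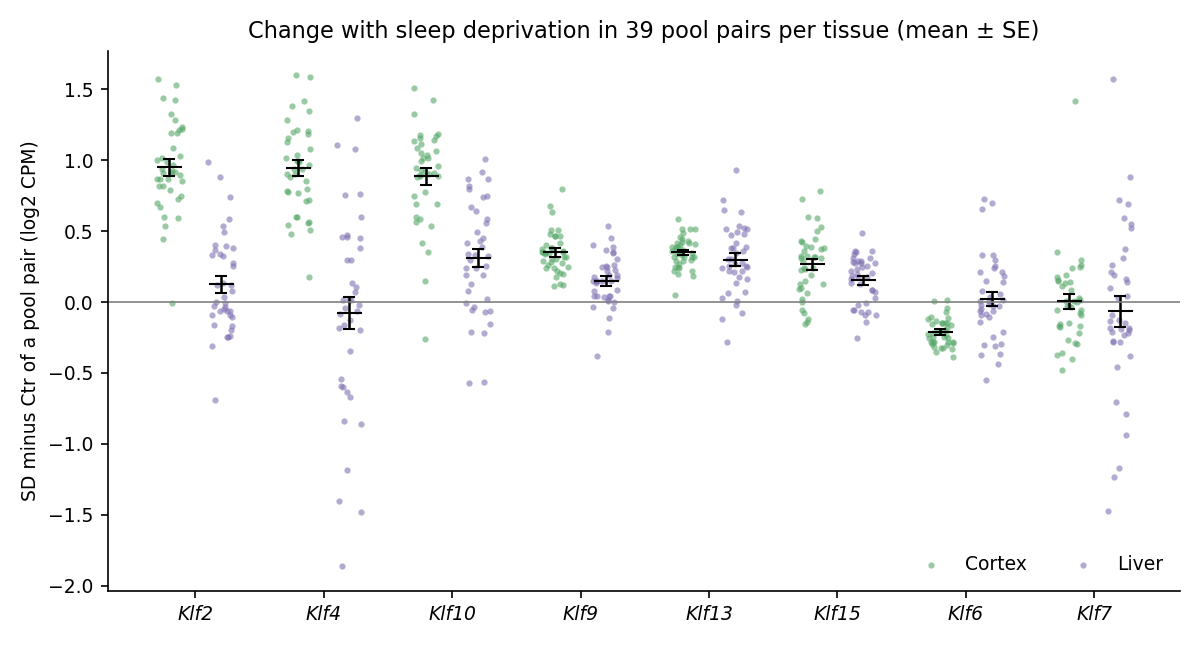
SD minus Ctr change (log2 CPM) of each of 39 pool pairs in cortex (green) and liver (purple), with the limma estimate ± SE as black bars. *Klf2*, *Klf4* and *Klf10* change by 0.89 to 0.95 in cortex and by -0.079 to 0.31 in liver, while *Klf13* changes by 0.35 and 0.30.

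The response differed between the tissues for 6 of 8 members (limma, adjusted p under 0.05), against 57.6% of the 12695 genes listed in both tissues. The change in liver minus that in cortex was tested over the 39 pool pairs of each tissue. *Klf4* differed most, by -1.02 ± 0.12 (adjusted p = 1.4e-09), and its change was smaller in liver in 36 of 39 pairs. *Klf2* differed by -0.83 ± 0.074 (adjusted p = 5.8e-13; smaller in liver in 38 of 39) and *Klf10* by -0.58 ± 0.078 (adjusted p = 2.9e-08; 35 of 39). *Klf9* differed by -0.20 ± 0.033 (adjusted p = 1.3e-06; 34 of 39). *Klf6*, which fell in cortex, differed in the opposite direction, by 0.23 ± 0.046 (adjusted p = 2.8e-05; higher in liver in 32 of 39). For *Klf15* the difference was -0.11 ± 0.029 (adjusted p = 0.0010; 29 of 39), which was past the threshold with the pairing of tissues by line but not without it (adjusted p = 0.065). *Klf13* differed by -0.051 ± 0.038 (adjusted p = 0.26) and *Klf7* by -0.069 ± 0.11 (adjusted p = 0.62), neither of which passed.

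Next, it was asked whether lines in which a member changed more in cortex were also those in which it changed more in liver. The 8 relations were tested over the 39 pool pairs with 100000 permutations, 1e-05 being the smallest p these can give. The 2 pools of each parental strain, and the lines that share a number, were treated as separate, here and in the relations below. *Klf15* stood out with r = 0.62 (two-sided permutation p = 1e-05, adjusted over 8 relations p = 8e-05) and Spearman rho = 0.54 (p = 0.00055, adjusted p = 0.0044). Without the 2 lines farthest from the median change in cortex, r was 0.57, and without the 4 lines that stood apart it was 0.58. The other members had r between -0.24 (*Klf7*) and 0.20 (*Klf9*), with adjusted permutation p of 0.476 or more. Cortex and liver were collected from the same mice, so both changes of a line can share animals. Whether the same mice entered both pools of a line is not given in the sources used here. RNA was extracted from each tissue by a different procedure.

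The changes of the members were then set against the mean change of other genes in the same pools. In cortex, the immediate early genes, which mark neuronal activation, all rose (12 of 12 listed; median log2 fold change 1.51): *Egr2* by 3.04 ± 0.15, *Arc* by 2.92 ± 0.095, *Fos* by 2.25 ± 0.11 and *Fosb* by 1.76 ± 0.077. In liver, 8 of these genes were listed and 4 rose, *Fosb* by 1.05 ± 0.18, *Fos* by 1.04 ± 0.15, *Btg2* by 0.38 ± 0.089 and *Ier5* by 0.20 ± 0.057. The list of glucocorticoid-response genes, targets of the receptor for the adrenal stress hormone, held 14 listed genes in cortex, which all rose (median 0.69), and 16 in liver, of which 12 rose and 4 did not pass (median 0.66). Among all genes, 33.0% were called higher in cortex and 21.5% in liver. Both lists were chosen with earlier results of these data known, so their counts are given as description. In cortex the largest changes were those of *Cdkn1a* (1.64 ± 0.088), *Hif3a* (1.19 ± 0.082), *Tsc22d3* (1.00 ± 0.056) and *Fkbp5* (0.97 ± 0.062). In liver they were those of *Zbtb16* (2.08 ± 0.14), *Mt2* (1.40 ± 0.23), *Fkbp5* (1.30 ± 0.075) and *Hif3a* (1.04 ± 0.22).

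Across the 39 pool pairs, *Klf2*, *Klf4* and *Klf10* in cortex followed the immediate early genes. The permutation test gave r = 0.68 for *Klf2* (p = 1e-05, adjusted over 48 relations p = 0.00012; rho = 0.60, adjusted p = 0.00072), r = 0.60 for *Klf4* (p = 9e-05, adjusted p = 0.00062; rho = 0.52, adjusted p = 0.0052) and r = 0.61 for *Klf10* (p = 6e-05, adjusted p = 0.00058; rho = 0.63, adjusted p = 0.00058). Without the 2 lines farthest from the median of the list, r was 0.51, 0.49 and 0.48. BXD89, whose immediate early genes rose by a mean of only 0.23, is the lowest point of the relation. With the glucocorticoid-response genes these 3 members had r of 0.37, 0.25 and 0.27, none of which passed after adjustment (permutation p = 0.068, 0.281 and 0.237).

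*Klf9*, *Klf13* and *Klf15* in cortex followed the glucocorticoid-response genes instead. Here r was 0.64 for *Klf9* (rho = 0.66), 0.70 for *Klf13* (rho = 0.64) and 0.65 for *Klf15* (rho = 0.66), each with the smallest permutation p, 1e-05, for r (adjusted p = 0.00012) and an adjusted permutation p of 0.00048 or less for rho. Without the 2 farthest lines, r was 0.52, 0.55 and 0.61, and without the 4 lines that stood apart it was 0.65, 0.66 and 0.86. With the immediate early genes, *Klf9* also had r = 0.48 (adjusted permutation p = 0.011; rho = 0.46, adjusted p = 0.017), while *Klf13* and *Klf15* had r of 0.20 and 0.13 (adjusted p = 0.443 and 0.646). Whether the 2 lists relate differently to a member was not itself tested. In liver, *Klf15* (r = 0.60, adjusted permutation p = 0.00062; rho = 0.56, adjusted p = 0.0020) and *Klf13* (r = 0.43, adjusted permutation p = 0.023; rho = 0.49, adjusted p = 0.0097) again followed the glucocorticoid-response genes, with r of 0.57 and 0.37 without the 2 farthest lines. *Klf10* (r = 0.37) and *Klf9* (r = 0.31) did not pass there after adjustment (p = 0.070 and 0.146). *Klf6* in liver followed the immediate early genes (r = 0.52, adjusted permutation p = 0.0030; rho = 0.51, adjusted p = 0.0066; r = 0.50 without the 2 farthest), although its mean change was not called. All these values share the libraries of 1 tissue, so library preparation can contribute to each r; its part was not tested.

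**Figure D3:**
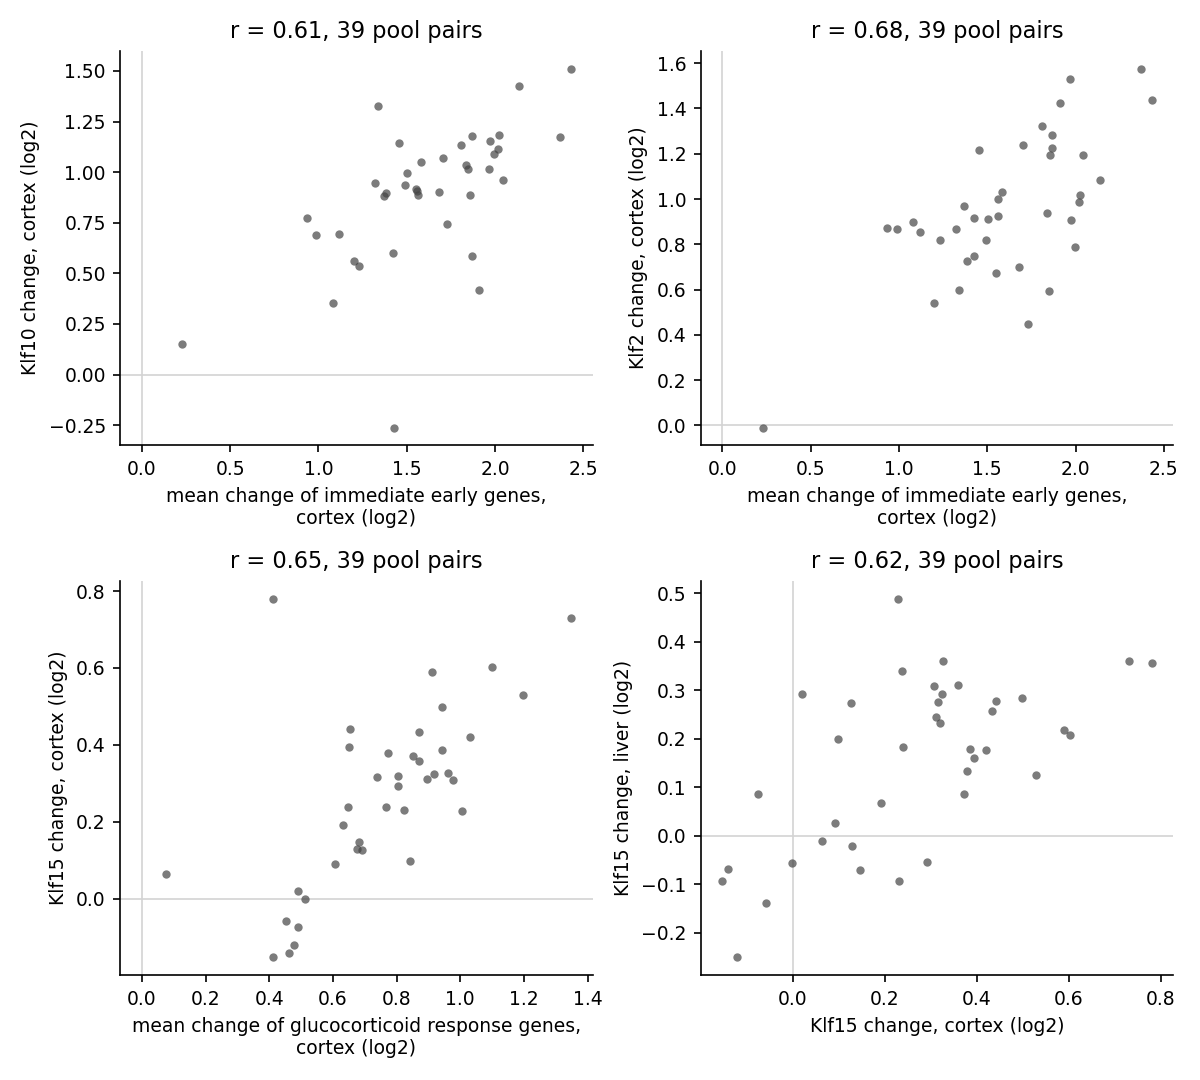
Change of a member (log2, y axes) in 39 pool pairs. The x axes show the mean change of 12 immediate early genes in cortex (top) or of 14 glucocorticoid-response genes in cortex (bottom left). At bottom right, the x axis shows the change of the same gene in the other tissue. The point near 0.23 on both upper x axes is BXD89, and the point at 0.78 away from the trend at bottom left is BXD56.

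The members' changes were also compared with each other. Over all 56 pairs of members in both tissues, 4 had an adjusted permutation p for r under 0.05, all in cortex: *Klf2* with *Klf4* (r = 0.71, adjusted p = 0.00056; rho = 0.62, adjusted p = 0.0014), *Klf13* with *Klf15* (r = 0.63, adjusted p = 0.00084; rho = 0.64, adjusted p = 0.0014), *Klf9* with *Klf13* (r = 0.62, adjusted p = 0.00093; rho = 0.60, adjusted p = 0.0019) and *Klf9* with *Klf15* (r = 0.52, adjusted p = 0.0094; rho = 0.56, adjusted p = 0.0027). Without the 2 farthest lines, r was 0.60, 0.59, 0.51 and 0.46 in the same order. *Klf10* had r = 0.42 with *Klf4* (adjusted permutation p = 0.071; rho = 0.46, adjusted p = 0.038), 0.38 with *Klf2* (adjusted permutation p = 0.105; rho = 0.41, adjusted p = 0.079) and -0.25 with *Klf15*. In liver the highest were *Klf9* with *Klf13* (r = 0.43, rho = 0.45) and *Klf10* with *Klf15* (r = 0.41, rho = 0.40). Each had an adjusted permutation p for r of 0.071. The adjusted permutation p for rho was 0.041 for *Klf9* with *Klf13* and 0.079 for *Klf10* with *Klf15*.

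**Figure D4:**
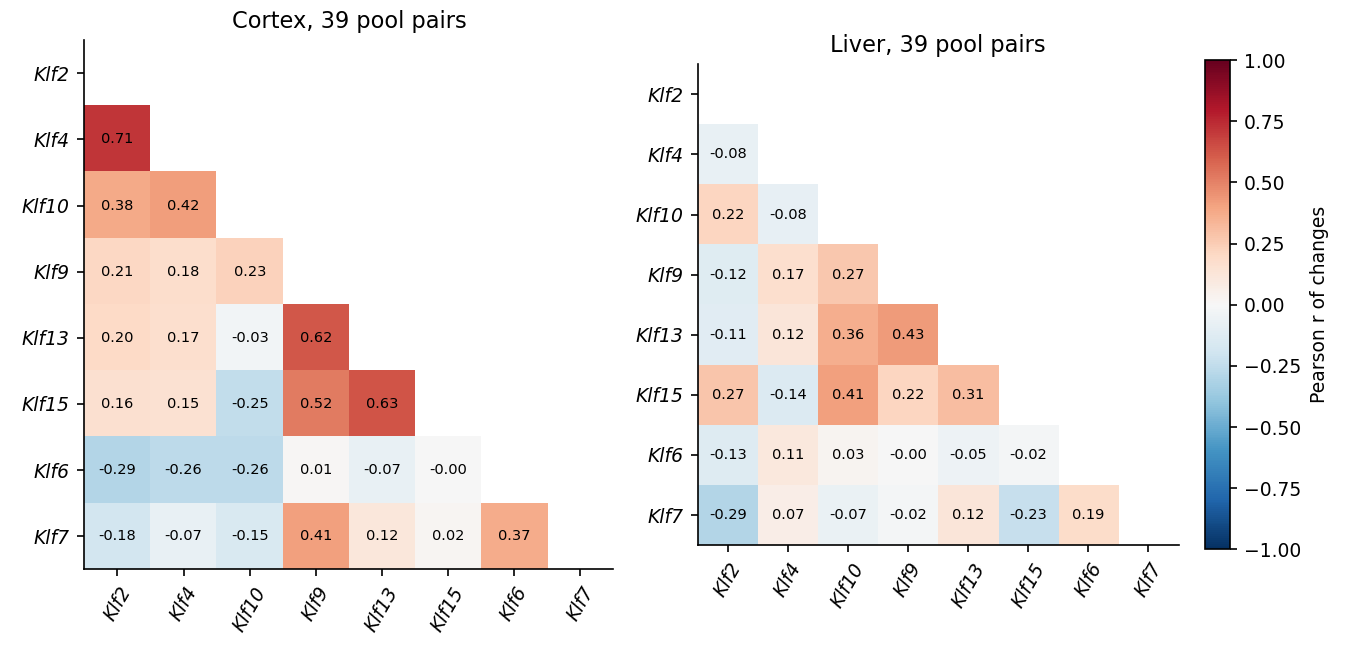
Pearson r between the SD minus Ctr changes of each pair of members over 39 pool pairs, in cortex (left) and liver (right); red is positive and blue negative. In cortex, *Klf2* with *Klf4* (0.71) and the *Klf9*, *Klf13* and *Klf15* trio (0.52 to 0.63) form the darkest cells.

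Among 13581 cortex genes at 0 log2 CPM or more, changes were compared with those of each member over the 39 pool pairs. The genes most like a member are given as a description. For *Klf2* these were *Egr4* (r = 0.73), *Klf4* (0.71) and *Sik1* (0.69), and for *Klf4* they were *Frmd6* (0.72), *Klf2* (0.71) and *Fosl2* (0.67). *Klf10* was most like *Stk40* (0.89), *Bdnf* (0.81), the gene of a neurotrophin induced by activity, and *Gpr3* (0.81). *Klf15* was most like *Hif3a* (0.78), *Mettl7a1* (0.77) and *Mxd4* (0.75), *Klf13* like *Arhgap39* (0.83), the glucose transporter gene *Slc2a1* (0.75) and *Hif3a* (0.72), and *Klf9* like *Magi2* (0.75), *Irs2* (0.74) and *Trio* (0.73). *Klf6* had lower maxima, with *Dhx36* (0.62), *Wls* (0.61) and *Pcdh10* (0.61). *Klf7* was most like *Mgat5* (0.89), *Lmbrd2* (0.89) and *Nrip1* (0.88), values that include the BXD90 pair.

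In liver, 12734 genes were compared in the same way. *Klf15* was most like *Cdc42ep4* (0.81), *Ip6k2* (0.80) and *Tat* (0.80), the last encoding tyrosine aminotransferase. *Klf13* was most like *Stk35* (0.79), the circadian repressor gene *Cry2* (0.73) and *Adarb1* (0.72). The nearest to *Klf9* were *Rnf169* (0.71), *Klhl24* (0.71) and *Plekhm1* (0.70), and to *Klf10* *Irf2* (0.69), *Txnip* (0.68) and *Rnf39* (0.64). For *Klf2* they were *Bloc1s4* (0.62), *2010320M18Rik* (0.61) and *Tm2d3* (0.60), for *Klf4* *St14* (0.53), *Stard8* (0.52) and *Ets1* (0.51), for *Klf6* *Cd97* (0.64), *Parvb* (0.63) and *Vav1* (0.62), and for *Klf7* *Tubgcp6* (0.71), *Pan2* (0.70) and *Stx16* (0.69).

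It was also asked whether lines kept their rank between Ctr and SD. A relation that does not pass leaves this undecided. Of 16 relations of a member's Ctr and SD levels over the lines, *Klf9* in cortex passed, with r = 0.55 (permutation p = 0.00037, adjusted p = 0.0059) and rho = 0.50 (p = 0.0014, adjusted p = 0.023), and r = 0.41 without the 2 farthest lines. Among the 33 BXD/RwwJ lines alone it was 0.47 (adjusted p = 0.084). *Klf15* in liver had r = 0.42 (adjusted permutation p = 0.063), which dropped to 0.15 without the 2 farthest lines and so rests on those. *Klf2* in cortex had r = 0.33 (adjusted permutation p = 0.125), and r = 0.51 (adjusted p = 0.014) without the 4 lines that stood apart. The parental pools gave the same order for *Klf9* in cortex at both samplings: 7.62 and 7.73 in B6 Ctr against 7.24 and 7.26 in D2 Ctr, and 7.87 and 8.07 in B6 SD against 7.59 and 7.73 in D2 SD. *Klf4* in Ctr cortex was 2.66 and 2.72 in B6 and 2.13 and 2.23 in D2. With 2 pools a strain no test was made. The changes of *Klf9* in cortex were 0.25 and 0.34 in B6, 0.35 and 0.47 in D2, and 0.30 and 0.40 in the F1 pools. Repeat pools of a strain differed in their *Klf2* change in cortex by 0.360 (B6) and 0.120 (D2), against an SD over lines of 0.314.

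Beyond the 8 members, 15 of 18 other genes of the KLF and related Sp family were listed in cortex, of which 5 rose, 4 fell and 6 did not pass (median log2 fold change 0.039). *Klf14*, a low gene with a mean of 12.7 reads, rose by 0.62 ± 0.14 (limma, adjusted p = 9.5e-05; 33 of 39 pairs). Named after its value was seen, *Klf11*, the closest relative of *Klf10*, moved opposite to it in cortex: it fell by 0.48 on the log2 scale (SE 0.043, adjusted p = 5.3e-17) and was higher in 0 of 39 pairs. Chosen likewise, *Klf16*, a relative of *Klf9* and *Klf13*, was higher in 0 of 39 pairs, with a log2 fold change of -0.31 ± 0.023 (adjusted p = 5.7e-21). In liver, 11 of the 18 were listed, of which 1 rose, 2 fell and 8 did not pass (median 0.00053). *Klf11* there was at 0.15 ± 0.082 (adjusted p = 0.12).

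**Figure D5:**
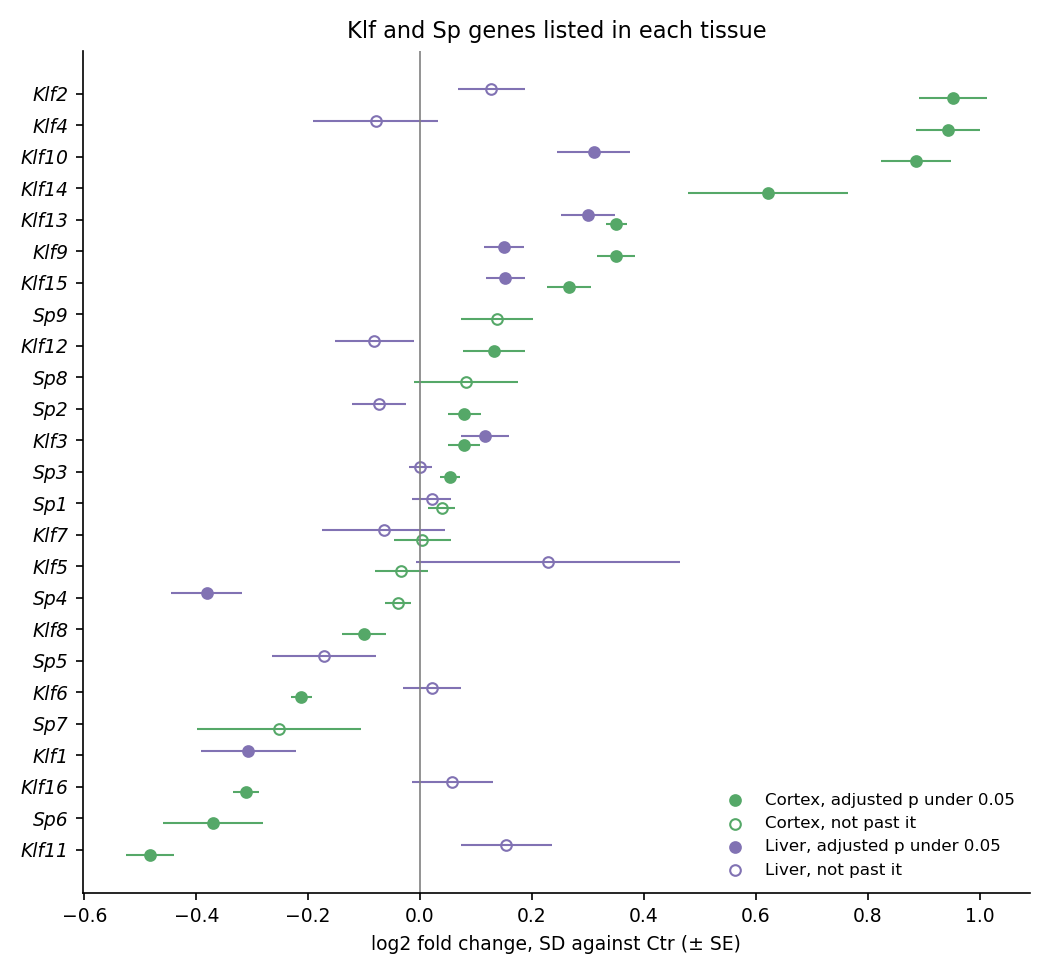
Log2 fold change ± SE (x axis) of every listed KLF and Sp gene in cortex (green) and liver (purple); filled points passed an adjusted p of 0.05. *Klf2*, *Klf4*, *Klf10* and *Klf14* lie at the right in cortex and *Klf11* at the left.

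Of 12 genes for proteins that KLFs recruit or that degrade them, all listed in both tissues, 6 rose and 4 fell in cortex (median 0.049), and 0 rose and 4 fell in liver (median -0.044). The corepressor gene *Sin3b* rose by 0.23 ± 0.016 in cortex and *Crebbp* by 0.12 ± 0.026. *Sin3a*, the paralog of *Sin3b*, fell by 0.12 and the deacetylase gene *Hdac3* by 0.16. In liver *Hdac3* fell by 0.20, *Hdac1* by 0.15, *Kat2b* by 0.11 and *Hdac2* by 0.08. The genes of amino acid breakdown and gluconeogenesis, among which targets of KLF15 are known, gave 4 higher and 0 lower of 5 listed in cortex (median 0.30) and 1 higher and 1 lower of 12 in liver (median 0.012). In cortex *Gpt2* rose by 0.63 ± 0.033, *Gpt* by 0.43 ± 0.035, *Prodh* by 0.30 ± 0.034 and *Bcat2* by 0.28 ± 0.026. In liver *Pck1* rose by 0.14 ± 0.036 and *Prodh* fell by 0.15.

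Of 5 known endothelial and lymphocyte targets of KLF2 and KLF4, 4 were listed in cortex. *Thbd*, encoding thrombomodulin, rose by 0.32 ± 0.045 and *S1pr1* by 0.07 ± 0.029, and *Edn1*, encoding endothelin 1, fell by 0.31. In liver, *Thbd* rose by 0.32 ± 0.11 and *S1pr1* fell by 0.12. Bulk RNA cannot tell fewer cells of a type from less RNA per cell. Of 10 endothelial markers in cortex, 2 rose, 6 fell and 2 did not pass (median -0.13). Their summed level was 235 to 360 CPM in Ctr (median 263) and 223 to 305 in SD (median 261). It was higher in SD in 17 of 39 pairs. *Cldn5* fell by 0.24, *Egfl7* by 0.22 and *Emcn* and *Kdr* by 0.20 each, while *Pecam1* rose by 0.17 and *Flt1* by 0.13. In liver, 2 rose, 2 fell and 6 did not pass (median 0.0064). Across lines, the change of *Klf2* and *Klf4* had r of -0.11 and 0.039 with the mean change of these markers (adjusted permutation p = 0.698 and 0.914), whereas *Klf9* had r = -0.58 (adjusted permutation p = 0.0013; rho = -0.68, adjusted p = 0.00024; r = -0.62 without the 2 farthest). *Klf15* had r = -0.35 (adjusted permutation p = 0.090; rho = -0.40, adjusted p = 0.049; r = -0.42 without the 2 farthest), and *Klf13* r = -0.20 (adjusted permutation p = 0.443; rho = -0.30, adjusted p = 0.171; r = -0.46 without the 2 farthest). In liver, *Klf4* (r = 0.42, adjusted permutation p = 0.029) and *Klf6* (r = 0.46, adjusted permutation p = 0.014) followed them, with rho of 0.40 and 0.36 (adjusted p = 0.048 and 0.084) and r of 0.38 and 0.37 without the 2 farthest; among the 33 BXD/RwwJ lines alone, adjusted p was 0.086 and 0.070. Lymphocyte markers moved with SD in liver, where 5 of 8 fell, 0 rose and 3 did not pass (median -0.79). The B cell genes *Cd79a*, *Ms4a1* and *Cd79b* fell by 1.82, 1.44 and 1.11, in 35 to 38 of 39 pairs, with a mean of at most 25.7 reads. The summed level of the list, 25.0 to 80.9 CPM in Ctr and 20.7 to 79.8 in SD, was mostly that of *Ptprc*, which was not called. In cortex *Ptprc* alone of the 8 was listed. Myeloid and microglia markers gave 2 higher and 2 lower of 8 listed in cortex, and 0 higher and 1 lower of 9 in liver. Neuron markers in cortex gave 0 higher and 4 lower of 6 (median -0.10), hepatocyte markers 0 called of 6 in liver, and erythroid markers 0 called of 1 listed in cortex and of 2 in liver. Of the markers of the other tissue, *Syt1* fell by 0.82 in liver, in 39 of 39 pairs, and *Cps1*, at a mean of 10.7 reads, fell by 0.51 in cortex. The part of these shifts in the members' changes was not tested.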

How the data were processed

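RNA-seq was carried out on cortex and liver pools of each line in each condition with a stranded, poly(A)-selected library kit, read single-end. Per the labels and the methods, the authors aligned reads with STAR to mm9, counted reads of RefSeq genes with HTSeq using strand, removed low-count genes, and deposited log2 CPM values scaled with edgeR's TMM factors, each tissue on its own. Cortex RNA was extracted with an automated kit and liver RNA by hand. The steps between values of a library equal whole reads (100% of values within 0.02 of a whole number, with a mean prior count of 0.9992). Their sum gave the reads of each library over the listed genes, not the reads sequenced. Counting errors cover counting only, while the SE of a limma estimate covers the spread between pools.

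SD was compared with Ctr per tissue over 39 pools each with limma 3.58.1 (eBayes with trend, Benjamini-Hochberg over all listed genes, threshold 0.05), without a block. The study used limma with voom weights, and whether line was blocked is not given in the sources used here. The tissue difference was tested on the change in liver minus that in cortex of each line. The Ctr and SD pools of a line deviated together (correlation over genes of at least 0.299 in cortex and 0.169 in liver, medians 0.614 and 0.475), so line pairs them, and fits with line as a block are given where they change a call. Relations over lines used Pearson r and Spearman rho with 100000 two-sided permutations. Pairs of members, and leaving out 4 lines that stood apart, were added after the data were seen. Alternatives also covered scaling, filters, choice of lines, and voom on the recovered reads. Named genes were all members, the 4 most changed called genes of each list and other family genes changed by at least 0.5. The 3 genes most like each member and the 2 endothelial markers that rose in cortex were also named. The members and lists were chosen with earlier results of these data known. The limma fits were tested on simulated data. Pools of a line are not mice: p-values measure spread between pools of different lines. Promoters came from RefSeq (GRCm38.p6) and gene spans from GENCODE M1 (mm9); no coordinate was converted between builds. The results of 2 genes on these lists are not reported here.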

Additional observations from a re-analysis of the deposited data

Results flagged for a closer look

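The response to SD differed between tissues for 6 of the 8 members, against 57.6% of the 12695 genes listed in both tissues. This was a test of the difference over the 39 pool pairs (limma, adjusted p under 0.05). The change in liver minus that in cortex was -1.02 for *Klf4*, -0.83 for *Klf2*, -0.58 for *Klf10*, -0.20 for *Klf9*, -0.11 for *Klf15* and 0.23 for *Klf6*. Endothelial markers mark a cell type known to express *Klf2* and *Klf4*. Their median change was -0.13 in cortex against 0.0064 in liver. In cortex their summed level had a median of 263 CPM in Ctr and 261 in SD. Their part in the difference was not tested. *Klf4* rested on a mean of 23.7 reads per Ctr library in liver and 121.9 in cortex.

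Among the 4 BXD/TyJ lines, 2 of 32 groups of values held a library far from the other 3, where chance flags about 1 in 20. *Klf7* in Ctr cortex was 2.57 in BXD/TyJ 05 against 3.34 to 3.42 in the other lines. *Klf15* in Ctr cortex was 4.27 in BXD/TyJ 29t against 4.38 to 4.40.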

How the results depend on the processing

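The number of members called was 7 in cortex under every alternative, 4 or 5 in liver and 5 or 6 for the tissue difference. With line as a replicate block, 7 members were called in cortex and 5 in liver; without pairing by line, 5 differed between tissues. The calls that changed were *Klf2* in liver, which passed under 7 alternatives (adjusted p from 0.020 to 0.18 over all those run), and *Klf15* between tissues; the block changed no other call. Values near 0 changed sign: *Klf7* in cortex was -0.00010 after median-centring, -0.0017 without BXD79, BXD85 and BXD101, -0.0044 with voom and the block and -0.047 without the 4 lines that stood apart, and from -0.033 to 0.017 leaving out 1 line at a time, lowest without BXD90. In liver, quantile normalization gave 0.0037 for *Klf4* and 0.027 for *Klf7*, and the 33 BXD/RwwJ lines gave -0.00035 for *Klf6*. The tissue difference of *Klf7* was 0.0077 after quantile normalization and 0.017 without the 4 lines. The number of Ctr and SD relations that passed was 1, against 0 in the BXD/RwwJ lines, 2 after median-centring and 3 without the 4 lines. The r of *Klf4* with endothelial markers in cortex was -0.033 in the BXD/RwwJ lines, and that of its changes between tissues was 0.010 without the 4 lines. The cause of these shifts was not tested. In liver, *Klf4* and *Klf7* rest on few reads.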

Other observations

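The 4 BXD/TyJ lines, which entered only the alternative fits over all 43 pools, gave the following changes (SD minus Ctr, log2). In cortex, *Klf2* changed by 0.86 to 1.43, *Klf4* by 0.90 to 1.21 and *Klf10* by 0.85 to 0.98, each higher in 4 of 4 lines. *Klf9* (0.29 to 0.82), *Klf13* (0.32 to 0.69) and *Klf15* (0.18 to 0.81) were higher in 4 of 4, and *Klf6* (-0.25 to -0.099) was lower in 4 of 4. *Klf7* ranged from -0.013 to 0.63. In liver, *Klf9* (0.11 to 0.36), *Klf13* (0.30 to 0.49) and *Klf15* (0.080 to 0.44) were higher in 4 of 4 lines, and *Klf10* (-0.12 to 0.45) in 3 of 4. *Klf2* (-0.28 to 0.73), *Klf4* (-1.13 to 0.61) and *Klf6* (-0.22 to 0.24) were higher in 2 lines and lower in 2, and *Klf7* (-1.87 to 0.023) was lower in 3. With 4 lines no test was made.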
